A study of Mus musculus with 18 samples.

Results

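The last day of a 6-stage series was examined, in sorted cells of the mouse heart at embryonic day 16.5 (E16.5) set against the same kind of cells at E15.5. The arrays were taken by the stage in their titles, which gave 3 arrays at E16.5 and 3 at E15.5, 6 of the 18 arrays of the series. At both stages the cells came from heart ventricles of Wt1GFP knock-in embryos that had been broken up with enzymes, and the brightest green cells were taken by fluorescence sorting. The green fluorescent protein sits in the Wt1 gene, so the knock-in allele was carried by both groups and no array without it was included. Lysis buffer was added after the sort, total RNA was extracted, and labelled copies were hybridised to Illumina bead arrays. The earlier 12 arrays, of E11.5 to E14.5 cells, entered the estimate of spread and served for a comparison of the last day with earlier days.

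Wt1 is expressed in the epicardium, the mesothelial sheet that covers the heart. Epicardial cells form an epithelium and contain keratin filaments. Some of them leave the sheet and give rise to fibroblasts and to mural cells of the coronary vessels. Other cell types of the ventricle can also carry the green label, so a bright sorted cell is not necessarily an epicardial cell.

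Each value is a probe intensity in arbitrary units on a linear scale. The arrays have nearly the same distribution of values, as after quantile normalization, and levels below are log2 of it. The deposited values still hold a background level of about 99.1 units, which shrinks the log2 difference of any gene close to it. A floor of 109 units (6.77 on the log2 scale) separated dim probes from background, and 10845 genes with a probe above it on at least 3 of the 18 arrays were tested. Arrays of one stage correlated at Pearson r of 0.976 to 0.991 across genes at E16.5 and 0.962 to 0.991 at E15.5. The median gene's SD between arrays was 0.092 at E16.5 and 0.10 at E15.5. Separate litters or embryos are not named in the labels, and the spread that the p-values rest on may therefore be technical. In sorted bulk samples fewer cells of a type and less RNA per cell cannot be told apart.

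The sorted cells were checked against cell type markers. Of 28 listed epicardial and mesothelial markers 22 were measured. Of these 20 were above the floor on all 3 arrays of E16.5, and 20 on all 3 of E15.5. The 29 measured heart muscle genes averaged 10.42, 8.95 and 8.69 in E16.5 replicates 1, 2 and 3, against 10.65, 8.66 and 8.94 at E15.5, so replicate 1 stood above the others at both stages. The 27 measured endothelial and endocardial genes averaged 10.25, 10.50 and 10.51 at E16.5, against 9.53, 10.42 and 10.28 at E15.5. The low array here was E15.5 replicate 1. The 10 measured red cell genes averaged 8.87, 9.09 and 8.72 at E16.5, against 8.80, 8.90 and 8.68 at E15.5. The 7 measured leukocyte genes, of 19 listed, averaged between 7.17 and 7.28 at E16.5 and between 6.996 and 7.23 at E15.5, close to the floor. RNA of several cell types was thus present on all 6 arrays, and its part in the gene results was not tested.

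Dmkn, Krt8, Lgals7, Igfbp6 and Krt18 were among the genes higher at E16.5 than at E15.5, and Moxd1, Rasl12, Mdk, Tenm4 and Slit2 among those lower. In limma's fit to all 18 arrays, with Benjamini-Hochberg adjustment over all genes, 48 genes (0.443% of those tested) had an adjusted p under 0.05. Of these 33 (0.304%) rose at E16.5 and 15 (0.138%) fell. The 7 that changed at least 2-fold (0.0645%) all rose. The median gene moved by -0.0090 on the log2 scale, and 45.9% of tested genes lay higher at E16.5, on arrays with nearly the same distribution of values. Among the called genes the absolute log2 difference ran between 0.24 and 1.61, with a median of 0.58. Of all tested genes 4.34% lay wholly higher on the 3 arrays of E16.5 than on the 3 of E15.5 and 7.61% wholly lower. Among the 48 called genes the stages overlapped in 1, Igfbp6. The choice of genes by this difference largely fixes that, so it is no separate support. All of these calls rest on a spread estimated over the 6 stages: a fit to the 6 arrays alone called 0 genes (682 at an unadjusted p under 0.05, against 1001 genes, 9.23%, in the fit to 18 arrays), and a fit to them with the replicate number as a block also called 0 (1168 unadjusted). The SE printed with each difference comes from that pooled spread. Computed from the E16.5 and E15.5 arrays alone it was larger in 41 of the 48 called genes, and 1.73 to 1.88 times as large in the 7 called at least 2-fold.

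**Figure D1:**
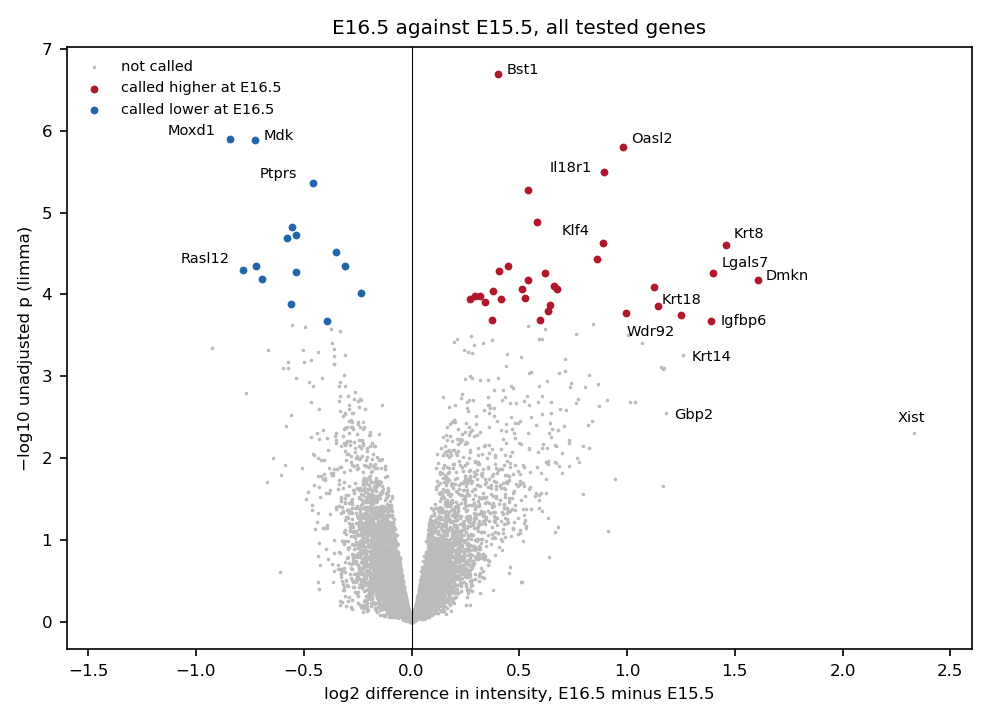
Log2 difference of E16.5 minus E15.5 (horizontal axis) against -log10 of the unadjusted limma p (vertical axis) for the 10845 tested genes, with called genes in colour. The points to the right that lie past a 2-fold difference and are called number 7, and no called gene lies past it on the left.

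The position of single arrays bears on the calls. In 29 of the 33 risen genes the E15.5 array nearest to E16.5 was replicate 2, and in 23 the E16.5 array nearest to E15.5 was replicate 1. Leaving out E15.5 replicate 2 gave 202 called genes and leaving out E16.5 replicate 1 gave 130, whereas leaving out E15.5 replicate 3 gave 6. The other 3 removals gave 10 without E16.5 replicate 2, 12 without E16.5 replicate 3 and 12 without E15.5 replicate 1. The sign of each of the 48 differences was the same in these 6 fits. Bst1, Oasl2, Moxd1 and Mdk were the 4 genes called in each of them, and 9 of the 48 were called in 4 or more. Bst1, Il18r1 and Slurp1, all among the 9, were above the floor on under 3 arrays outside E16.5. They entered the test through the stage where they were high, so their calls are no support of their own.

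Krt8 and Krt18, the keratins that pair in filaments of simple epithelia, rose together. Krt8 had levels of 9.52, 10.02 and 9.61 in E16.5 replicates 1, 2 and 3, against 7.65, 8.99 and 8.14 at E15.5. Every E16.5 array lay above every E15.5 array, and replicate 2 was the high array of both stages. The Krt8 difference was 1.46 ± 0.24 on the log2 scale (SE from the spread pooled over 6 stages; limma adjusted p = 0.0205), or 2.74-fold, and 1.88, 1.03 and 1.46 within pairs of equal replicate number. Krt18 had levels of 8.83, 9.47 and 9.07 at E16.5, against 7.46, 8.57 and 7.97 at E15.5. Its arrays were in the same order as those of Krt8, and the stages did not overlap. The Krt18 difference was 1.12 ± 0.21 (SE; limma adjusted p = 0.031), or 2.18-fold. From the arrays of the 2 stages alone the SE was 0.42 for Krt8 and 0.37 for Krt18. The 2 genes lie near each other on chromosome 15, on opposite strands, with 2 predicted genes, Gm36026 and Gm41404, listed between them.

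The promoters of the 2 keratins are shown because these neighbours moved together. Each is the 250 bases before the gene's start in RefSeq's GRCm38.p6, read 5′ to 3′ on the gene's strand, at chr15:102004343-102004592 (minus strand) for Krt8 and chr15:102027966-102028215 (plus strand) for Krt18. Capitals mark the letters CACCC on either strand, the core of the box that zinc finger factors of the KLF and SP families bind.
Krt8: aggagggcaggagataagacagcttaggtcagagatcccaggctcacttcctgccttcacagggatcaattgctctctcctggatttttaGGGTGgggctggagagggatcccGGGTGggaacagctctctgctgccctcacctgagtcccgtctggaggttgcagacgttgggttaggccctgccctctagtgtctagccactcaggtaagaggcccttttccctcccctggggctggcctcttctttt
Krt18: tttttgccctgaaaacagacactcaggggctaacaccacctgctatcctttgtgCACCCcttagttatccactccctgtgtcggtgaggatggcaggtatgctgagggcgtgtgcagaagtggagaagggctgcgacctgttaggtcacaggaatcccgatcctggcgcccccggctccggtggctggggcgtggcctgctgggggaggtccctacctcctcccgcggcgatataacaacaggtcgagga
The letters begin 160 and 137 bases before the start in Krt8 and 196 bases before it in Krt18. They were in 18 of the 27 risen genes with a listed promoter and in 8 of the 12 fallen ones, beside 57.3% of the 8766 tested genes and 51.3% of all 27025 promoters in the table. The other motifs searched on both strands were a TATA box (TATAAA), a GC box (GGGCGG) and an AP-1 site (TGANTCA). The TATA box was in 4 of 27 risen and 1 of 12 fallen genes (7.02% of tested genes), and the AP-1 site in 1 of 27 and 0 of 12 (4.08%). The GC box was in 12 of 27 risen genes and in 10 of 12 fallen genes, beside 59.7% of tested genes. A match is a description of letters and not of a bound site.

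The other genes called at least 2-fold included Dmkn, Igfbp6 and Lgals7. Dmkn, which encodes the secreted epithelial protein dermokine, had levels of 8.64, 9.58 and 9.57 at E16.5, against 7.08, 8.54 and 7.35 at E15.5. E16.5 replicate 1 and E15.5 replicate 2 lay next to each other, without overlap. The Dmkn difference was 1.61 ± 0.29 (SE, and 0.55 from the 2 stages alone; limma adjusted p = 0.0279), or 3.04-fold, and 1.56, 1.04 and 2.22 within the pairs. Igfbp6, a secreted binding protein of insulin-like growth factors, had 8.66, 9.38 and 9.57 at E16.5, against 7.25, 8.71 and 7.49 at E15.5, and was the 1 risen gene whose stages overlapped, since E16.5 replicate 1 lay under E15.5 replicate 2. Its difference was 1.39 ± 0.28 (SE; limma adjusted p = 0.048), or 2.62-fold. Lgals7, a galectin of stratified epithelia, had 9.25, 10.05 and 9.90 at E16.5, against 7.76, 8.98 and 8.27 at E15.5. Its stages did not overlap, its difference was 1.40 ± 0.25 (SE; limma adjusted p = 0.026), and 2 other probes of the gene gave 0.23 and 0.92. The calls of Krt8, Krt18, Dmkn, Igfbp6 and Lgals7, and those of Clic3, Lgals3 and Has1 below, were each lost when any of E16.5 replicate 2, E16.5 replicate 3, E15.5 replicate 1 or E15.5 replicate 3 was left out. The highest adjusted p of these 8 genes was then between 0.0977 and 0.242. With no filter on dim probes the adjusted p was 0.078 for Igfbp6 and 0.0652 for Clic3, and without both replicate 1 arrays it was 0.103 for Has1.

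Of the 22 measured epicardial and mesothelial genes 4 rose (Dmkn, Krt8, Igfbp6 and Krt18) and 0 fell, beside 0.304% and 0.138% of all tested genes. At an unadjusted p under 0.05 there were 13 higher and 1 lower, beside 5.17% and 4.06% of all tested genes. The list was chosen with earlier results of these data known, so these counts describe it and are no separate support. The list's median difference was 0.53, and its medians within pairs of replicates 1, 2 and 3 were 0.61, 0.20 and 0.71. Mean levels of the list were 8.53, 8.78 and 8.90 at E16.5, against 7.93, 8.45 and 8.17 at E15.5, so all 3 later arrays lay above the 3 earlier ones, and E16.5 replicate 1 lay nearest to E15.5 replicate 2. Across the alternative settings the median stayed between 0.39 and 0.68. Leaving out 1 array at a time moved the number of called members between 0 and 9, and it was 0 without E16.5 replicate 2, E16.5 replicate 3, E15.5 replicate 1 or E15.5 replicate 3.

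Members of the list that were not called are given as values, and those in the rest of this account of the list were named after their values were seen. Krt19, another keratin of simple epithelia, had 8.51, 9.24 and 9.43 at E16.5, against 7.65, 8.61 and 7.70 at E15.5 (difference 1.07, limma adjusted p = 0.065). Msln, the mesothelial surface protein mesothelin, had 9.36, 9.55 and 9.87 at E16.5, against 8.43, 9.11 and 8.77 at E15.5 (difference 0.82, limma adjusted p = 0.108). Msln did not overlap between the stages, while E16.5 replicate 1 of Krt19 lay under E15.5 replicate 2. The uroplakin Upk1b differed by 0.77 (limma adjusted p = 0.151), the tight junction gene Cldn15 by 0.68 (limma adjusted p = 0.103) and the keratin Krt7 by 0.73 (limma adjusted p = 0.244). Tbx18, an epicardial T-box factor, had 7.15, 6.90 and 7.03 at E16.5, against 7.20, 6.93 and 7.03 at E15.5, near the floor at both stages. Tcf21, a factor of epicardial cells and fibroblast precursors, had 9.60, 9.60 and 9.44 at E16.5, against 10.16, 9.86 and 9.97 at E15.5 (difference -0.45, limma adjusted p = 0.400), with no overlap. Aldh1a2, the retinoic acid synthesis enzyme, differed by 0.30 (limma adjusted p = 0.547).

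**Figure D2:**
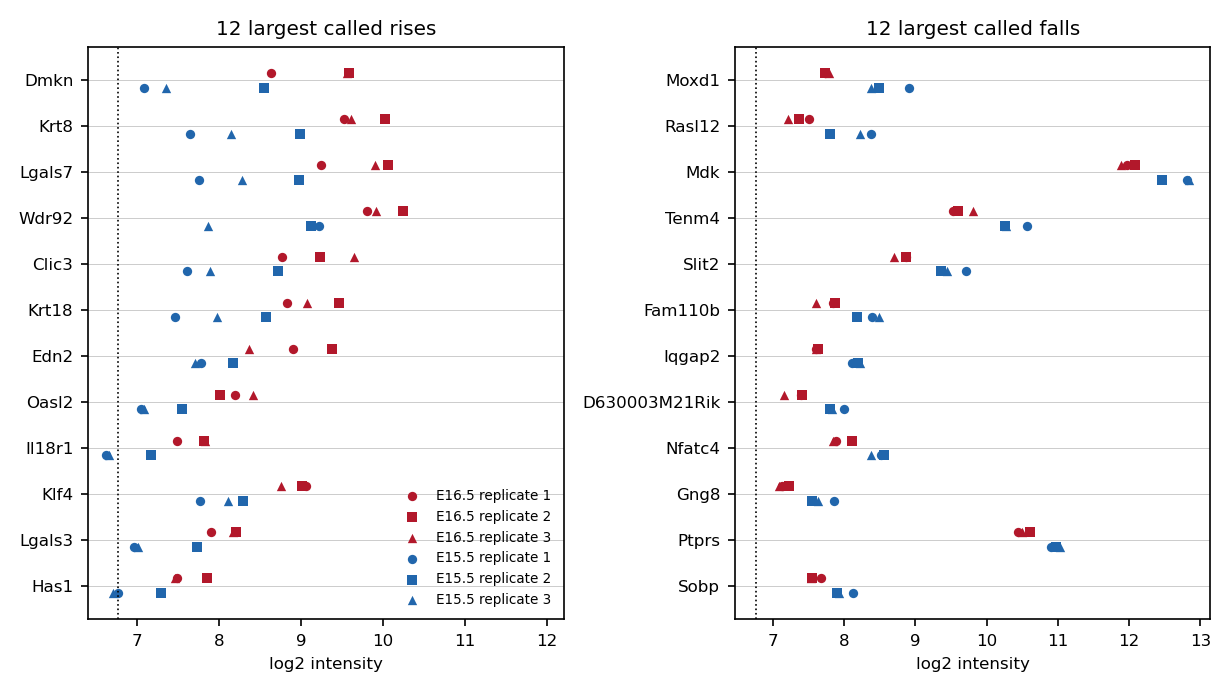
Log2 intensity of the 12 risen and 12 fallen genes named here on each array, with E16.5 in red and E15.5 in blue and the replicate number shown by circle (1), square (2) and triangle (3). Genes were drawn by a rule that required no overlap between the stages, and the blue square of E15.5 replicate 2 is the blue point nearest to the red ones in most risen genes.

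Several risen genes encode signalling and surface proteins. Oasl2, an interferon-induced member of the oligoadenylate synthetase family, had 8.20, 8.01 and 8.41 at E16.5, against 7.04, 7.55 and 7.08 at E15.5. The stages lay well apart, and the difference was 0.98 ± 0.13 (SE; limma adjusted p = 0.00428), or 1.97-fold. Its call was kept without any 1 array, with an adjusted p of at most 0.0375, and a second probe of the gene gave 0.21. Bst1, a surface enzyme that makes cyclic ADP-ribose, had 7.11, 7.06 and 7.18 at E16.5, against 6.74, 6.66 and 6.74 at E15.5, where it was under the floor on all 3 arrays, so it was at least 1.27-fold higher. Its adjusted p was 0.00222, and it was named after its values were seen. Bst1, Il18r1 and Has1 were among 7 risen genes that were above the floor on under 3 arrays outside E16.5, so that they entered the test through the stage where they were high, and their p-values are no support of their own. Edn2, an endothelin ligand, had 8.90, 9.38 and 8.37 at E16.5, against 7.78, 8.17 and 7.70 at E15.5. Its lowest E16.5 array was replicate 3, unlike most risen genes. The Edn2 difference was 0.995 ± 0.198 (SE; limma adjusted p = 0.0423), and the call was lost without E16.5 replicate 1, E16.5 replicate 2, E15.5 replicate 1 or E15.5 replicate 3 (adjusted p up to 0.189), without both replicate 1 arrays (0.183) and with no filter on dim probes (0.0692). Il18r1, a subunit of the interleukin-18 receptor, had 7.49, 7.82 and 7.82 at E16.5, against 6.62, 7.17 and 6.66 at E15.5, where 1 of the 3 arrays was above the floor. It differed by 0.89 ± 0.12 (SE; limma adjusted p = 0.00697), and the call was lost without E15.5 replicate 3 (adjusted p = 0.051) and with normexp background correction (0.301), and a second probe gave 0.25.

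Klf4, a zinc finger transcription factor of epithelia, had 9.06, 9.02 and 8.76 at E16.5, against 7.76, 8.29 and 8.11 at E15.5. Here the high arrays at E16.5 were replicates 1 and 2 and the low array at E15.5 was replicate 1. The difference was 0.89 ± 0.15 (SE; limma adjusted p = 0.0205), or 1.85-fold, and 1.30, 0.72 and 0.65 within the pairs. Other Klf4 probes gave 0.48 and 0.70. The Klf4 call was lost without E16.5 replicate 2, E15.5 replicate 1 or E15.5 replicate 3 (adjusted p up to 0.0977), without both replicate 1 arrays (0.101) and when its probes were averaged (0.0912). The matrix-related gene Has1, which makes hyaluronan, had 7.49, 7.85 and 7.46 at E16.5, against 6.76, 7.29 and 6.71 at E15.5, and the galectin Lgals3 had 7.91, 8.20 and 8.17 at E16.5, against 6.97, 7.73 and 7.01 at E15.5. They differed by 0.68 ± 0.13 and 0.86 ± 0.15 (SE; limma adjusted p = 0.031 and 0.026). Clic3, of the chloride intracellular channel family, had 8.76, 9.24 and 9.64 at E16.5, against 7.61, 8.71 and 7.89 at E15.5, a difference of 1.14 ± 0.22 (SE; limma adjusted p = 0.037). In these 3 genes E15.5 replicate 2 was the high E15.5 array, and the stages did not overlap, as the rule that named them required.

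Wdr92, a WD repeat gene, had 9.80, 10.24 and 9.92 at E16.5, against 9.22, 9.13 and 7.87 at E15.5. Its difference of 1.25 ± 0.25 (SE; limma adjusted p = 0.0438) was uneven over the pairs, at 0.58, 1.11 and 2.05, and E15.5 replicate 3 was the low array. A second Wdr92 probe gave 0.03, so the 2 probes of the gene disagreed. The call was lost when either of replicates 2 and 3 of E16.5 was left out (up to 0.188), with no filter on dim probes (0.0728) and with normexp background correction (0.0552). Other risen genes, named after their values were seen, were Anxa8, an annexin (0.62), Nr4a2, a nuclear receptor (0.64), Slurp1, a secreted Ly6 protein (0.54), Tspan8, a tetraspanin (0.51), and Tgm2, a transglutaminase that cross-links proteins (0.41). Each was called in limma's fit to 18 arrays, with values on the log2 scale. Anxa8, Nr4a2, Tspan8 and Tgm2 were each called in 2 of the 6 fits without 1 array, and Slurp1 in 5. Without both replicate 1 arrays the limma adjusted p was 0.0652 for Nr4a2 and 0.151 for Tspan8. Slurp1 was another of the 7 risen genes that entered the test through E16.5, so its p-value is no support of its own.

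No fallen gene reached a 2-fold difference. Moxd1, which encodes a monooxygenase related to dopamine beta-hydroxylase, had 7.73, 7.73 and 7.79 at E16.5, against 8.92, 8.48 and 8.37 at E15.5. The E16.5 arrays were close together and far under those of E15.5. Moxd1 fell by 0.84 ± 0.11 on the log2 scale (SE; limma adjusted p = 0.00428), or 1.79-fold lower, and its call was kept without any 1 array, with an adjusted p of at most 0.0196. A second Moxd1 probe gave -0.43. Mdk, the heparin-binding growth factor midkine, had 11.97, 12.08 and 11.88 at E16.5, against 12.81, 12.46 and 12.84 at E15.5, and was among the bright genes on all 6 arrays. It fell by 0.73 ± 0.092 (SE; limma adjusted p = 0.00428), or 1.65-fold lower, and its adjusted p without any 1 array was at most 0.035. Within the pairs the Mdk difference was -0.84, -0.38 and -0.95, and 3 other probes gave -0.90, -0.16 and -0.39.

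Slit2, a ligand of Robo receptors, had 8.87, 8.87 and 8.69 at E16.5, against 9.71, 9.36 and 9.44 at E15.5, and fell by 0.69 ± 0.12 (SE; limma adjusted p = 0.0279). Tenm4, a teneurin of the cell surface, had 9.53, 9.60 and 9.80 at E16.5, against 10.57, 10.26 and 10.27 at E15.5, and fell by 0.72 ± 0.13 (SE; limma adjusted p = 0.026). Ptprs, a receptor tyrosine phosphatase, had 10.44, 10.61 and 10.50 at E16.5, against 10.91, 10.98 and 11.03 at E15.5, and fell by 0.45 ± 0.064 (SE; limma adjusted p = 0.00774). None of these 3 genes overlapped between the stages, as the rule that named them required. Their probes were uneven: 4 other Slit2 probes gave -0.10, -0.03, -0.23 and -0.41, and 3 other Ptprs probes gave -0.05, -0.09 and -0.20. Other Tenm4 probes gave -0.06 and -0.74. Averaging the probes raised the adjusted p to 0.321 for Slit2 and 0.502 for Ptprs. Leaving out both replicate 1 arrays raised it to 0.112 for Slit2 and 0.142 for Tenm4. The Slit2 call was lost without E16.5 replicate 2, E16.5 replicate 3, E15.5 replicate 1 or E15.5 replicate 3 (adjusted p up to 0.165). The Ptprs call was lost without E15.5 replicate 3 (0.0597), and the Tenm4 call without E16.5 replicate 2, E15.5 replicate 1 or E15.5 replicate 3 (up to 0.108).

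The remaining falls include intracellular regulators. Nfatc4, a transcription factor activated by calcineurin, had 7.89, 8.11 and 7.85 at E16.5, against 8.52, 8.56 and 8.38 at E15.5, and fell by 0.54 ± 0.086 (SE; limma adjusted p = 0.020). The call was lost without E16.5 replicate 3 or E15.5 replicate 1 (adjusted p up to 0.0811) and without both replicate 1 arrays (0.093). Rasl12, a Ras-like protein, had 7.50, 7.36 and 7.21 at E16.5, against 8.38, 7.81 and 8.23 at E15.5, and fell by 0.78 ± 0.14 (SE; limma adjusted p = 0.026). Iqgap2, a scaffold of the actin cortex, had 7.60, 7.63 and 7.61 at E16.5, against 8.12, 8.19 and 8.22 at E15.5, with little spread within either stage. Iqgap2 fell by 0.56 (limma adjusted p = 0.036), Fam110b by 0.58 (limma adjusted p = 0.020), D630003M21Rik by 0.55 (limma adjusted p = 0.0182), the G protein subunit gene Gng8 by 0.53 (limma adjusted p = 0.026) and Sobp by 0.39 (limma adjusted p = 0.048). The other 3 fallen genes were Ncoa5 (-0.35), Gchfr (-0.31) and Cox4i2 (-0.24), named after their values were seen to complete the 15. The stages did not overlap in any of these 10 genes, which their choice largely fixes. Of all tested genes 7.61% lay wholly lower at E16.5.

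Other probes gave -0.15 for Iqgap2, -0.07 for D630003M21Rik, -0.12 for Gchfr, and -0.27 and -0.06 for Sobp, smaller than the printed differences. A second Fam110b probe gave -0.63. The calls of Rasl12, Gng8 and Sobp were each lost without any of E16.5 replicate 2, E16.5 replicate 3, E15.5 replicate 1 or E15.5 replicate 3, and that of Iqgap2 also without E16.5 replicate 1, with a highest adjusted p of 0.142, 0.141, 0.226 and 0.179. Those of Fam110b and D630003M21Rik were lost without any of E16.5 replicate 3, E15.5 replicate 1 or E15.5 replicate 3, with a highest adjusted p of 0.0951 and 0.0735. Ncoa5, Gchfr and Cox4i2 were each called in 2 of the 6 fits without 1 array. Without both replicate 1 arrays the adjusted p was 0.0634 for Rasl12, 0.0566 for Fam110b, 0.119 for Iqgap2 and Sobp, and 0.126 for Gng8. It was then 0.125 for Gchfr and 0.107 for Cox4i2. Averaging the probes of a gene gave 0.0519 for Iqgap2, 0.0546 for D630003M21Rik and 0.131 for Sobp, and no filter on dim probes gave 0.0574 for Iqgap2 and 0.064 for Sobp. Sobp was also not called with normexp (0.0806), cyclic loess (0.0578) or the floor on all 6 arrays (0.0538). The direction of each fall was the same in these settings.

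Pairs of equal replicate number were compared because replicate 1 held high heart muscle levels at both stages. At least 2-fold differences were counted in each pair, with no test, beside 18 genes (0.166%) for the stage means. Pair 1 had 56 genes at least 2-fold higher at E16.5 and 8 lower, pair 2 had 11 and 0, and pair 3 had 64 and 4. The median absolute difference was 0.109, 0.0765 and 0.108, so pair 2 held the nearest arrays. Krt8, Dmkn, Lgals7 and Xist were the 4 genes at least 2-fold higher in all 3 pairs, and 0 genes were 2-fold lower in all 3. All 48 called genes had 1 sign in the 3 pairs, as their choice on the same 6 arrays largely fixes, and 15.8% of all tested genes were higher and 18.6% lower in all 3. Leaving out both replicate 1 arrays gave 45 called genes, of which 24 were among the 48, and the replicate number as a block over 18 arrays gave 70, of which 47 were among them. The call that the block ended was that of Il17re, a subunit of an interleukin-17 receptor (0.63, limma adjusted p = 0.0412, and 0.0572 with the block).

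**Figure D3:**
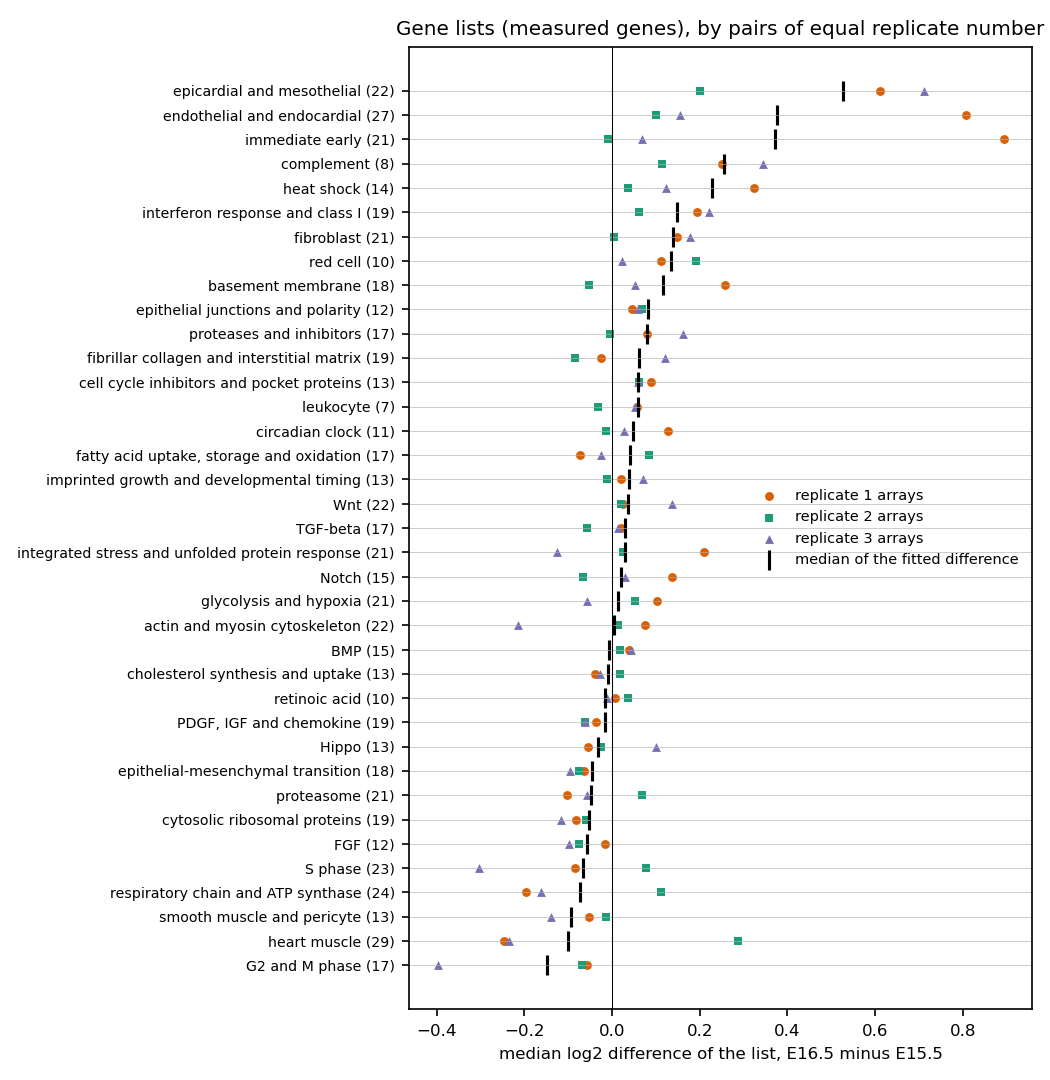
Median log2 difference of E16.5 minus E15.5 over the measured genes of each list with at least 5, drawn for the pairs of replicates 1, 2 and 3. The epicardial and mesothelial list is above 0 in all 3 pairs (0.61, 0.20 and 0.71), while the endothelial and immediate early lists are far above 0 in pair 1 alone.

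The listed markers of other cell types gave 0 called genes in limma's fit to 18 arrays. Called genes outside the lists were not sorted by cell type. Among 27 endothelial and endocardial genes 6 were higher and 0 lower at an unadjusted p under 0.05, beside 5.17% and 4.06% of all tested genes. The list's median was 0.38. That median was 0.81 in pair 1, 0.10 in pair 2 and 0.15 in pair 3, and it was 0.043 without E15.5 replicate 1. Rbp7, a retinol-binding protein of capillary endothelium, had 10.71, 11.04 and 10.93 at E16.5, against 9.04, 10.27 and 9.87 at E15.5 (difference 1.17, limma adjusted p = 0.0958). Aqp1, a water channel, differed by 0.73 (limma adjusted p = 0.329), Cav1, of caveolae, by 0.59 (limma adjusted p = 0.446) and Cd93 by 0.50 (limma adjusted p = 0.626). E15.5 replicate 1 was the lowest of the 6 arrays for each of these 4 genes.

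The 29 heart muscle genes had a median of -0.10, with -0.25, 0.29 and -0.24 in the pairs and 0 genes at an unadjusted p under 0.05. Csrp3, a muscle LIM protein, had 11.67, 9.87 and 9.22 at E16.5, against 12.24, 9.47 and 10.04 at E15.5. Without E15.5 replicate 1 the list's median was 0.59, and without E16.5 replicate 1 it was -0.62, so no direction is given for it. Myl7, an atrial myosin light chain, had 9.28, 9.09 and 9.44 at E16.5, against 9.62, 8.49 and 8.59 at E15.5 (difference 0.37, limma adjusted p = 0.691). Myl7 lay higher at E16.5 in pairs 2 and 3 and was called without E15.5 replicate 1 (0.73, adjusted p = 0.0398), without both replicate 1 arrays (0.73, 0.0465) and with array weights (0.54, 0.0221). Smooth muscle and pericyte genes (13 measured) had a median of -0.093 with 2 lower and 0 higher at an unadjusted p under 0.05. Fibroblast genes (21 measured) had a median of 0.14 with 1 higher and 2 lower. Over all tested genes 5.17% were higher and 4.06% lower at that unadjusted p. Pdgfrb, the PDGF receptor of mural cells, had 6.999, 6.91 and 6.94 at E16.5, against 7.52, 7.01 and 7.38 at E15.5 (difference -0.35, limma adjusted p = 0.252). Pdgfra, the fibroblast receptor of the same family, had 10.34, 10.14 and 10.19 at E16.5, against 10.87, 10.49 and 10.62 at E15.5 (difference -0.43, limma adjusted p = 0.370). Both receptors lay wholly lower at E16.5 without reaching the threshold, and 7.61% of all tested genes lay wholly lower. Red cell genes had a median of 0.13 and leukocyte genes of 0.059.

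**Figure D4:**
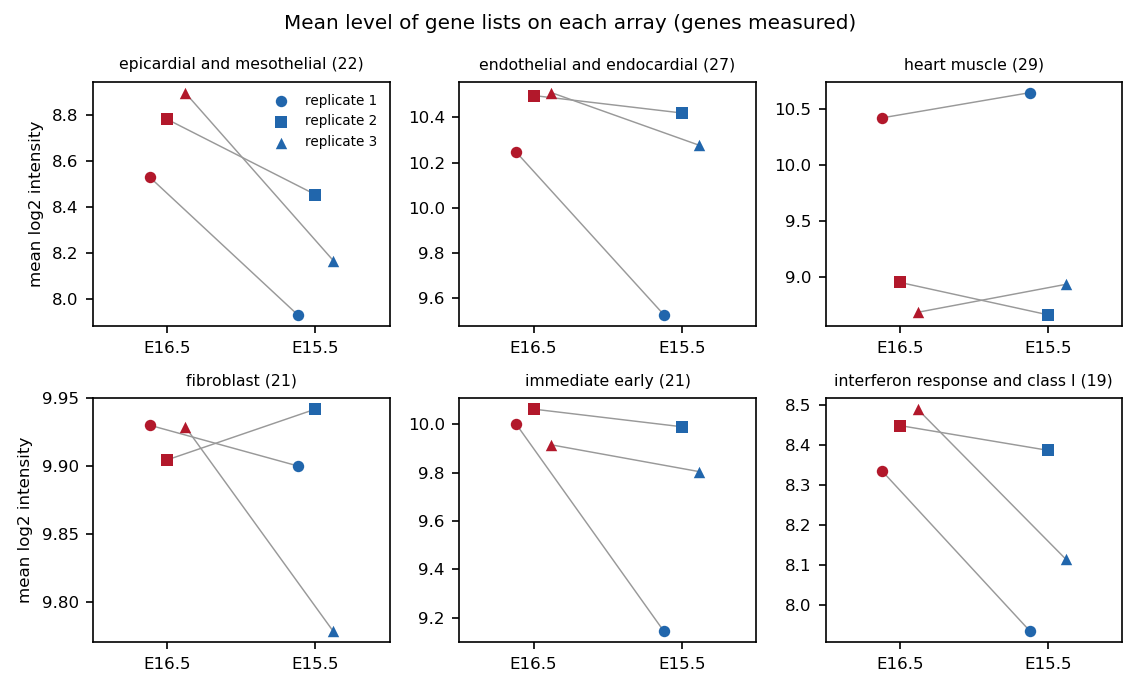
Mean log2 intensity of 6 gene lists on each E16.5 array (left, red) and E15.5 array (right, blue), with the replicate number shown. Epicardial and mesothelial means are higher on all 3 E16.5 arrays, heart muscle means are highest in replicate 1 of both stages, and E15.5 replicate 1 is the low array of the endothelial and immediate early lists.

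Immediate early genes are switched on within minutes of a stimulus such as dissociation. Of 21 such genes 1 rose, Klf4, beside 0.304% of all tested genes, and the list's median was 0.37. The pairs gave 0.89, -0.0099 and 0.069, and E15.5 replicate 1 had the lowest list mean (9.14, where the other 5 arrays lay between 9.80 and 10.06). Atf3 had 9.90, 10.10 and 9.52 at E16.5, against 7.93, 9.69 and 9.08 at E15.5 (difference 0.94, limma adjusted p = 0.383). Heat shock genes had 5 of 14 higher at an unadjusted p under 0.05, beside 5.17% of all tested genes. None of them was called, and their median was 0.23. Hspa1a, a stress-induced chaperone with a near-identical copy that the probe may also read, had 9.90, 9.76 and 9.92 at E16.5, against 7.30, 9.78 and 9.01 at E15.5. Here too E15.5 replicate 1 was the low array, and the part of the sort and the dissociation in these values was not tested.

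Of 19 interferon response and class I genes 1 rose, Oasl2, and 6 were higher and 0 lower at an unadjusted p under 0.05, with a list median of 0.15. Over all tested genes 0.304% rose, and 5.17% were higher and 4.06% lower at an unadjusted p under 0.05, the shares that the counts of these lists stand beside. Gbp2, an interferon-induced GTPase, had 9.28, 9.86 and 10.44 at E16.5, against 7.89, 9.61 and 8.55 at E15.5 (difference 1.18, limma adjusted p = 0.173). Ifitm3 and Ifitm1, membrane proteins that block viral entry, differed by 0.71 and 0.63 (limma adjusted p = 0.208 and 0.116), and related family members may share their probes. Of 8 complement genes 5 were higher at an unadjusted p under 0.05, with a median of 0.25 and 0 called. The complement gene C4a, outside that list and named after its values were seen, was called (0.41, limma adjusted p = 0.026). It was under the floor on all 3 E15.5 arrays and entered the test through E16.5, so its p-value is no support of its own. Among secreted signals the PDGF, IGF and chemokine list had 4 higher and 2 lower of 19 at an unadjusted p under 0.05, 0 called and a median of -0.017. Cxcl12, a chemokine of developing vessels, had 10.21, 10.31 and 10.79 at E16.5, against 9.10, 10.05 and 9.88 at E15.5 (difference 0.76, limma adjusted p = 0.152).

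Further lists reached 4 or more genes in one direction at an unadjusted p under 0.05, each with 0 called. Proteases and their inhibitors had 5 higher and 1 lower of 17. The inhibitor gene Timp2 differed by 0.67 (limma adjusted p = 0.256), Serping1, of the C1 inhibitor, by 0.59 (limma adjusted p = 0.511), and the protease gene Htra1 by 0.51 (limma adjusted p = 0.0789, and 0.0464 with the replicate block). Glycolysis and hypoxia genes had 5 higher and 0 lower of 21, with a median of 0.014, and the integrated stress and unfolded protein response list had 4 higher and 1 lower of 21, with a median of 0.030. The stress gene Nupr1 had 10.14, 10.80 and 11.09 at E16.5, against 9.15, 10.40 and 9.45 at E15.5 (difference 1.01, limma adjusted p = 0.151). The other 22 lists with at least 5 measured genes, among them S phase, collagen, Wnt, BMP and Notch genes, had 0 called members and medians between -0.15 and 0.12. Of their 364 list entries 13 were higher and 14 lower at an unadjusted p under 0.05, beside 5.17% and 4.06% of all tested genes. The lowest median was that of the 17 measured G2 and M phase genes, at -0.057, -0.068 and -0.40 in the pairs.

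The last day was also set against the earlier days, by subtracting the mean daily change between E11.5 and E14.5 from the E16.5 minus E15.5 difference in the same fit. This contrast called 291 genes (2.68%), 173 of them positive (1.60%) and 118 negative (1.09%). All 48 genes called for the step were among them, and the 2 contrasts share the E15.5 and E16.5 arrays. Of the 22 epicardial and mesothelial genes 11 were positive and 0 negative, beside those 1.60% and 1.09%. This list was chosen with earlier results of these data known, so the count is no separate support. Krt8 averaged 9.68, 8.72, 8.08, 7.60, 8.26 and 9.72 over the 6 stages in order, so it declined to E14.5 and stood at E16.5 where it had stood at E11.5. Krt18 took the same course, with 9.41, 8.77, 7.88, 7.52, 8.001 and 9.12. Upk1b, a uroplakin of mesothelium, averaged 10.69, 10.14, 9.25, 8.81, 9.51 and 10.29. Dmkn and Lgals7 took another course: Dmkn stayed between 6.74 and 6.94 to E14.5, near the floor, and then averaged 7.66 at E15.5 and 9.26 at E16.5. Lgals7 stayed between 7.30 and 7.60 to E14.5 and then averaged 8.34 and 9.73.

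The negative side held genes that had gained in the earlier days. Moxd1 averaged 6.80, 7.74, 8.08, 8.51, 8.59 and 7.75 over the 6 stages, and Rasl12 averaged 7.05, 7.52, 7.69, 8.57, 8.14 and 7.36. Tgfbi, a matrix protein induced by TGF-beta, averaged 7.81, 10.47, 10.79, 10.68, 10.01 and 9.43, and had gained most of its level between E11.5 and E12.5. The secreted protein gene Ccdc3 and the amino acid transporter Slc38a5 likewise gained between E11.5 and E12.5, to 10.91 and 11.75, and averaged 8.28 and 10.47 at E16.5. For these 3 genes the earlier daily mean is not an even slope. Of these 5 genes Moxd1 and Rasl12 were called for the step itself, and Tgfbi, Ccdc3 and Slc38a5 had adjusted p of 0.0874, 0.0711 and 0.367 in limma's fit.

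**Figure D5:**
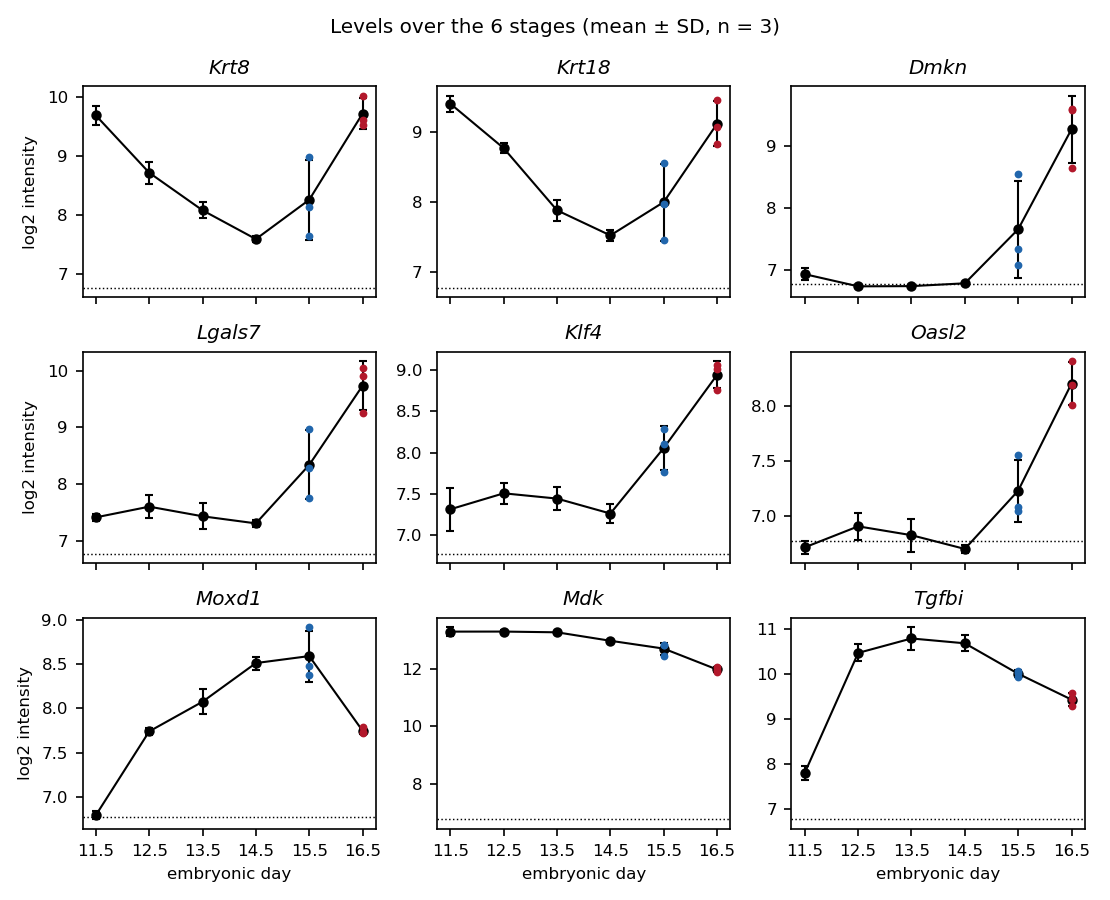
Log2 intensity of 9 genes over the 6 stages (horizontal axis, embryonic day), with the mean ± SD of 3 arrays in black, the single arrays of E15.5 and E16.5 as coloured points and the floor as a dotted line. Krt8 and Krt18 fall to E14.5 and rise after it, Dmkn and Lgals7 are flat to E14.5 and rise after it, and Moxd1 and Mdk are lower at E16.5 than at E15.5.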

How the data were processed

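Illumina bead arrays measured RNA of 18 samples, 6 stages of 3 arrays each. GenomeStudio 2011.1 is the tool in the submitters' processing notes. The sources used here do not give how values were normalized or filtered. The authors' deposited intensities run between 83.8 and 17358 units, and the sorted values of the 18 columns differ by at most 2.04 units, as after quantile normalization. A second table with 36 columns was not used, since its running numbers match no label. Groups and replicate numbers came from the array titles. Every title holds R1 after the stage, and the replicate number was taken from its ending, HI_R1, HI_R2 or HI_R3. The labels do not say what R1 or HI means.

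Of 45281 probes 20037 were above the floor, the upper 0.01 tail of the background, on at least 3 arrays. Symbols came from the platform's gene table (1 symbol for 34885 probes, several for 18, no listed one for 10378), and 34807 were matched to RefSeq GRCm38.p6, with 0 symbols changed. No single symbol was listed for 3078 kept probes. The brightest probe stood for each of the 4183 genes with more than 1, and 10845 genes were tested. Differences were tested on log2 values with limma 3.58.1 in R 4.3.3 (1 mean per stage, 12 residual degrees of freedom, Benjamini-Hochberg adjustment, called at an adjusted p under 0.05). The pipeline was tested on simulated data. The number of arrays limits the precision.

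The comparison, the gene lists (39, with 826 entries, 636 measured) and the rules were chosen with earlier results of these data known. Named genes were the 12 largest called rises and the 12 largest called falls without overlap and above the floor at the higher stage, called members of each list up to 6 and its largest members up to 4, and the 5 largest of each sign against the earlier daily rate. After the values were seen, list members were narrowed to cell type lists with at least 5 measured genes and to lists with a called member or at least 4 members in 1 direction at an unadjusted p under 0.05. Replicate numbers came from the titles. Arrays of equal number deviated together from their stage means (r of 0.73, 0.43 and 0.36 across genes), although E16.5 replicate 3 was nearer to E15.5 replicate 2 (0.49), so the number was used as a block in an alternative. Other alternatives were fits to 6 arrays, array weights, other floors, normexp with an offset of 16, cyclic loess, averaged probes and leaving out arrays. Some genes are not analysed here.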

Additional observations from a re-analysis of the deposited data

Results flagged for a closer look

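For 10 genes the change of the last day differed from the mean daily change between E11.5 and E14.5, by limma's contrast of the 2 in the fit to 18 arrays. The difference was 2.15 ± 0.25 (SE) for Krt8 (adjusted p = 0.000414), 1.75 ± 0.22 for Krt18 (0.000641), 1.65 ± 0.31 for Dmkn (0.00844), 1.43 ± 0.26 for Lgals7 (0.00795) and 1.40 ± 0.22 for Upk1b (0.00247), in log2 units a day. Of these 5 genes Krt8, Krt18 and Upk1b had earlier daily changes of -0.70, -0.63 and -0.63, while Dmkn and Lgals7 had -0.049 and -0.035. In the other direction the difference was -1.53 ± 0.14 (SE) for Tgfbi (adjusted p = 8.2e-05), -1.41 ± 0.11 for Moxd1 (2.3e-05), -1.36 ± 0.22 for Ccdc3 (0.0031), -1.34 ± 0.23 for Slc38a5 (0.00608) and -1.29 ± 0.14 for Rasl12 (0.000327). Their earlier daily changes were 0.96, 0.57, 0.43, 0.73 and 0.51. All 10 differences passed the threshold in each of the 15 other settings whose fit held the earlier stages. They were chosen as the 5 largest of each sign, without overlap between the stages, among the 291 genes (2.68%) called on this contrast. The settings share most of their arrays, so the choice largely fixes this result and it is no separate support. The day before the last, which this contrast leaves out, had moved the same way in 9 of the 10 genes, by 0.70 for Upk1b, 1.03 for Lgals7, -0.68 for Tgfbi and -1.29 for Ccdc3, and these steps between stage means were not tested. The difference is thus not particular to the last day. Moxd1 was the exception, with 0.079.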

How the results depend on the processing

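Fits to the 6 arrays, with the replicate block or without it, called 0 genes of any size (1168 and 682 at an unadjusted p under 0.05). With the replicate block over 18 arrays there were 70 calls and the block ended no named call but that of Il17re. Array weights gave 679 calls, 24 of them at least 2-fold, and 1274 for the last day against the earlier rate. At least 2-fold calls numbered 4 with no filter on dim probes and 22 with normexp. Leaving out 1 array gave 6 to 202 calls, 0 to 33 at least 2-fold and 144 to 419 against the earlier rate. Calls under a stricter floor, cyclic loess and averaged probes numbered 53, 54 and 50, and the 48 genes kept their sign wherever they were tested. Signs turned in uncalled genes: with array weights Mybpc3 was at 0.038, Myh7 at 0.023 and Myocd at 0.026, and without both replicate 1 arrays Myocd was at 0.0044. Leaving out 1 array moved Csrp3 between -1.04 and 0.50, Mybpc3 between -0.95 and 0.54, Myh7 between -0.85 and 0.51, Acta2 between -1.001 and 0.055, Myocd between -0.74 and 0.59, Vldlr between -0.70 and 0.086 and Tbx18 between -0.090 and 0.046. Among all settings of the named genes 1520 values kept their side of the threshold, 153 lost it, 68 gained it and 18 turned sign. Signal over background limits what dim genes show.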

Other observations

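There were 11 genes at least 2-fold higher at E16.5 without a call, and those not described above are given here, named after their values were seen. Krt14, a keratin of basal epithelia, had 9.59, 10.00 and 10.40 at E16.5, against 8.06, 9.58 and 8.56 at E15.5 (difference 1.26, limma adjusted p = 0.0769). The stages of Krt14 lay next to each other without overlap, at E16.5 replicate 1 and E15.5 replicate 2. Myo5b, a myosin motor of recycling vesicles in epithelial cells, differed by 1.17 (limma adjusted p = 0.0954) and Slc23a3, a transporter gene, by 1.01 (limma adjusted p = 0.0595). Tpbgl differed by 1.16 and Depp1 by 1.03, and neither was called.

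Xist, the RNA that coats the inactive X chromosome in female cells, had 9.74, 10.39 and 10.43 at E16.5, against 8.54, 6.60 and 8.42 at E15.5 (difference 2.33, limma adjusted p = 0.224). It was under the floor on E15.5 replicate 2. The Y-linked gene Eif2s3y had 7.89, 7.04 and 7.12 at E16.5, against 7.75, 7.75 and 7.57 at E15.5. Kdm5d, also Y-linked, had 6.89, 6.67 and 6.74 at E16.5, against 6.84, 6.91 and 6.85 at E15.5, near the floor on all 6 arrays. The labels used here give no sex of the embryos, and the part of sex in the other differences was not tested.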
